A study of Mus musculus with 6 samples.

Results

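Astrocytes clear glutamate and potassium from the space around synapses, move water at their endfeet and share metabolites through gap junctions. When the brain is injured or holds a tumor they become reactive, a state usually recognised by more of the intermediate filament proteins GFAP and vimentin. The 9 genes described here, chosen by symbol from 32285 genes in the deposited count tables, cover these jobs: Gfap and Vim (filaments), Aqp4 (water channel), Slc1a2 and Slc1a3 (the glutamate transporters GLT-1 and GLAST), Gja1 and Gjb6 (the gap junction proteins connexin 43 and connexin 30), Glul (glutamine synthetase) and Aldh1l1 (a folate enzyme used as a marker of astrocytes). All 9 were present in both tables.

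The tissue was C57BL/6J mouse brain, labelled as tumor in both genotypes and made by in utero electroporation of the ganglionic eminences, and RNA and accessible chromatin were read from the same nuclei (10x Multiome). All animals carried a piggyBac vector in which the ubiquitous CAG promoter drives Foxr2 together with GFP, and an Akaluc-GFP vector. In the group called Foxr2 p53LOF, a CRISPR guide against Trp53 was added, and in the group called Foxr2 alone no p53 loss is labelled. Counts were used from 1 library of each genotype, so genotype, animal, lesion and library cannot be told apart, no test between genotypes was possible, and all intervals below are exact 95% intervals that cover counting error only. Age at collection is not given in the sources used here. The counts of another Foxr2 alone library were not analysed here, and for that library only its peak list was used.

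The groups were set by Hmga2, a chromatin protein of embryonic and tumor cells, within clusters that carried astrocyte markers. Of 8413 nuclei kept from Foxr2 p53LOF, 743 astrocyte-like nuclei held at least 2 Hmga2 unique molecular identifiers (UMIs, single counted RNA molecules) and were called Hmga2-high, the intended tumor group. A further 518 held at most 1 and were called Hmga2-low, the intended host group. Of 8327 nuclei kept from Foxr2 alone, 401 were astrocyte-like and all had at most 1. Median depth was 8622 UMIs in Hmga2-high nuclei, 6270.5 in Hmga2-low nuclei and 2533 in the astrocyte-like nuclei of Foxr2 alone. The libraries shared 140 cell barcodes, 1.39% of the smaller set.

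The intended labels held only in part. Of the 518 Hmga2-low nuclei, 395 lay in the same cluster as 737 of the 743 Hmga2-high nuclei, the Hmga2-rich cluster, and 119 lay in a second astrocyte-like cluster. Chromatin counts on the vector were found in 30.8% of Hmga2-high nuclei (95% Clopper-Pearson interval, 27.5 to 34.3%) and in 27.3% of Hmga2-low nuclei of the same cluster. They were found in 5.04% of the second cluster (1.87 to 10.7%) and in 0.664% of neuron-like nuclei. No peak on the vector was called in Foxr2 alone, so its nuclei could hold no such count and are not compared. GFP RNA did not follow this order, with 572, 568 and 652 counts per 1000000 UMIs of the group (CPM) in Hmga2-high nuclei, Hmga2-low nuclei of the same cluster and the second cluster, and 155 CPM in Foxr2 alone. Foxr2 RNA stood at 72.5, 72.8, 95.6 and 16.7 CPM in the same order. No probe of the Trp53 edit itself was made, since a guide-induced change in the gene need not lower its RNA.

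The summed level of 14 astrocyte markers, none of them among the 9 genes, was 1107 CPM in Hmga2-high nuclei and 1460 CPM in Hmga2-low nuclei of the same cluster, against 10707 CPM in the second cluster and 7296 CPM in Foxr2 alone. The 7 markers of oligodendrocyte precursor cells (OPCs) summed to 2390 and 2694 CPM in the first pair and to 1551 and 631 CPM in the second, while OPC-like nuclei held 17491 CPM in Foxr2 p53LOF. The 9 genes, both gene lists described below and Hmga2 were left out of the clustering, although genes that vary with them were not, so differences between clusters are given as descriptions. In the Hmga2-rich cluster the astrocyte and OPC marker lists stood almost level, with median log2 enrichments of 3.14 and 3.13, and none of its 10 leading genes was an astrocyte marker. With doublets kept, the same naming rule called the matching cluster OPC-like (3.08 for OPC and 3.02 for astrocyte markers). Its nuclei kept the astrocyte-like class of the main clustering in that setting. Because the name was this uncertain, the 4 sets of nuclei are named below by their rule and cluster, and each comparison that uses all 518 Hmga2-low nuclei is given beside the same comparison against the second cluster. The second cluster also held 882 CPM of 11 immune markers, against 216 CPM in Hmga2-high nuclei and 8576 CPM in immune-like nuclei. Its oligodendrocyte markers summed to 1916 CPM, against 712 CPM in Hmga2-high nuclei, 606 CPM in Hmga2-low nuclei of the Hmga2-rich cluster and 1153 CPM in Foxr2 alone. Its median mitochondrial share of UMIs was 0.447%, against 0.0607% in Hmga2-high nuclei, 0.0703% in Hmga2-low nuclei of that cluster and 0.335% in Foxr2 alone. The part of these other markers and of RNA quality in any value below was not tested.

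Of the promoters of these genes, 3 are shown. Those of Gjb6 and Gja1 had peaks that separated Hmga2-high nuclei from the second cluster in the chromatin data described further on, and that of Gfap had a peak over its start that was called in Foxr2 p53LOF and not in Foxr2 alone. The sequences are from GRCm38, the assembly named mm10 in the files. They run 5′ to 3′ on the strand of the gene up to the start of transcription. The Gfap window, chr11:102897194-102897450 on the minus strand, runs through the first 7 exon bases, and its capitals mark a match to TTCNNNGAA, the palindrome bound by STAT factors. The Gjb6 window is chr14:57133612-57133861 on the minus strand. The Gja1 window, chr10:56378838-56379087 on the plus strand, lies before the annotated start that its peak covers.
Gfap: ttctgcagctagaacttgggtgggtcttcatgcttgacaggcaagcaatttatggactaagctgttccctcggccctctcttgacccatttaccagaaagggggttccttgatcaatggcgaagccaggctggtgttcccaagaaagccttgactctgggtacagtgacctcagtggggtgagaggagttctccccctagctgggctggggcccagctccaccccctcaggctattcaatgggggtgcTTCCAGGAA
Gjb6: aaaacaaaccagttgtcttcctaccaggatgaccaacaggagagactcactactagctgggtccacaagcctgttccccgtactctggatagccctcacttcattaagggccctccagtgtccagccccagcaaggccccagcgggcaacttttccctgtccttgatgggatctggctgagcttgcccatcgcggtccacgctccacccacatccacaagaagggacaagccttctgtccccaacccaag
Gja1: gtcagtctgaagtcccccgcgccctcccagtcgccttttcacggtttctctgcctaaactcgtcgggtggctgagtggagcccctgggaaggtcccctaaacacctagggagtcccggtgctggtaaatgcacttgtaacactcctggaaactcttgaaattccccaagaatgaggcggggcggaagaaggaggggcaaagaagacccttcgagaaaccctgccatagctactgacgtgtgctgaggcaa

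The STAT match of Gfap began 2 bases before the start. The letters TTCNNNGAA occurred in 8.29% of 32817 RefSeq promoters of 300 bases, searched on both strands like all motifs here, and among the genes with a RefSeq promoter (8 of 9, with Aqp4 the exception) they were also found before Slc1a3, as TTCCAAGAA at 96 bases. Another 6 motifs were searched. The NFI site TTGGCA occurred in 14.1% of these promoters. The AP-1 site TGANTCA occurred in 7.81%. The SOX site ACAAAG was present in 18.7% of them. The ETS site CCGGAAGT was found in 3.89%. The TATA box, searched as TATAAA, was in 13.6% and the CCAAT box in 37.4%. No match to any of the 7 was found in the Gjb6 window or in the 250 bases before the Gja1 start shown. The RefSeq start of Gja1, whose 250 bases before it held no peak of Foxr2 p53LOF, had an AP-1 match 19 bases before it. No match overlapped another. A match is a description of letters and not a binding site.

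**Figure D1:**
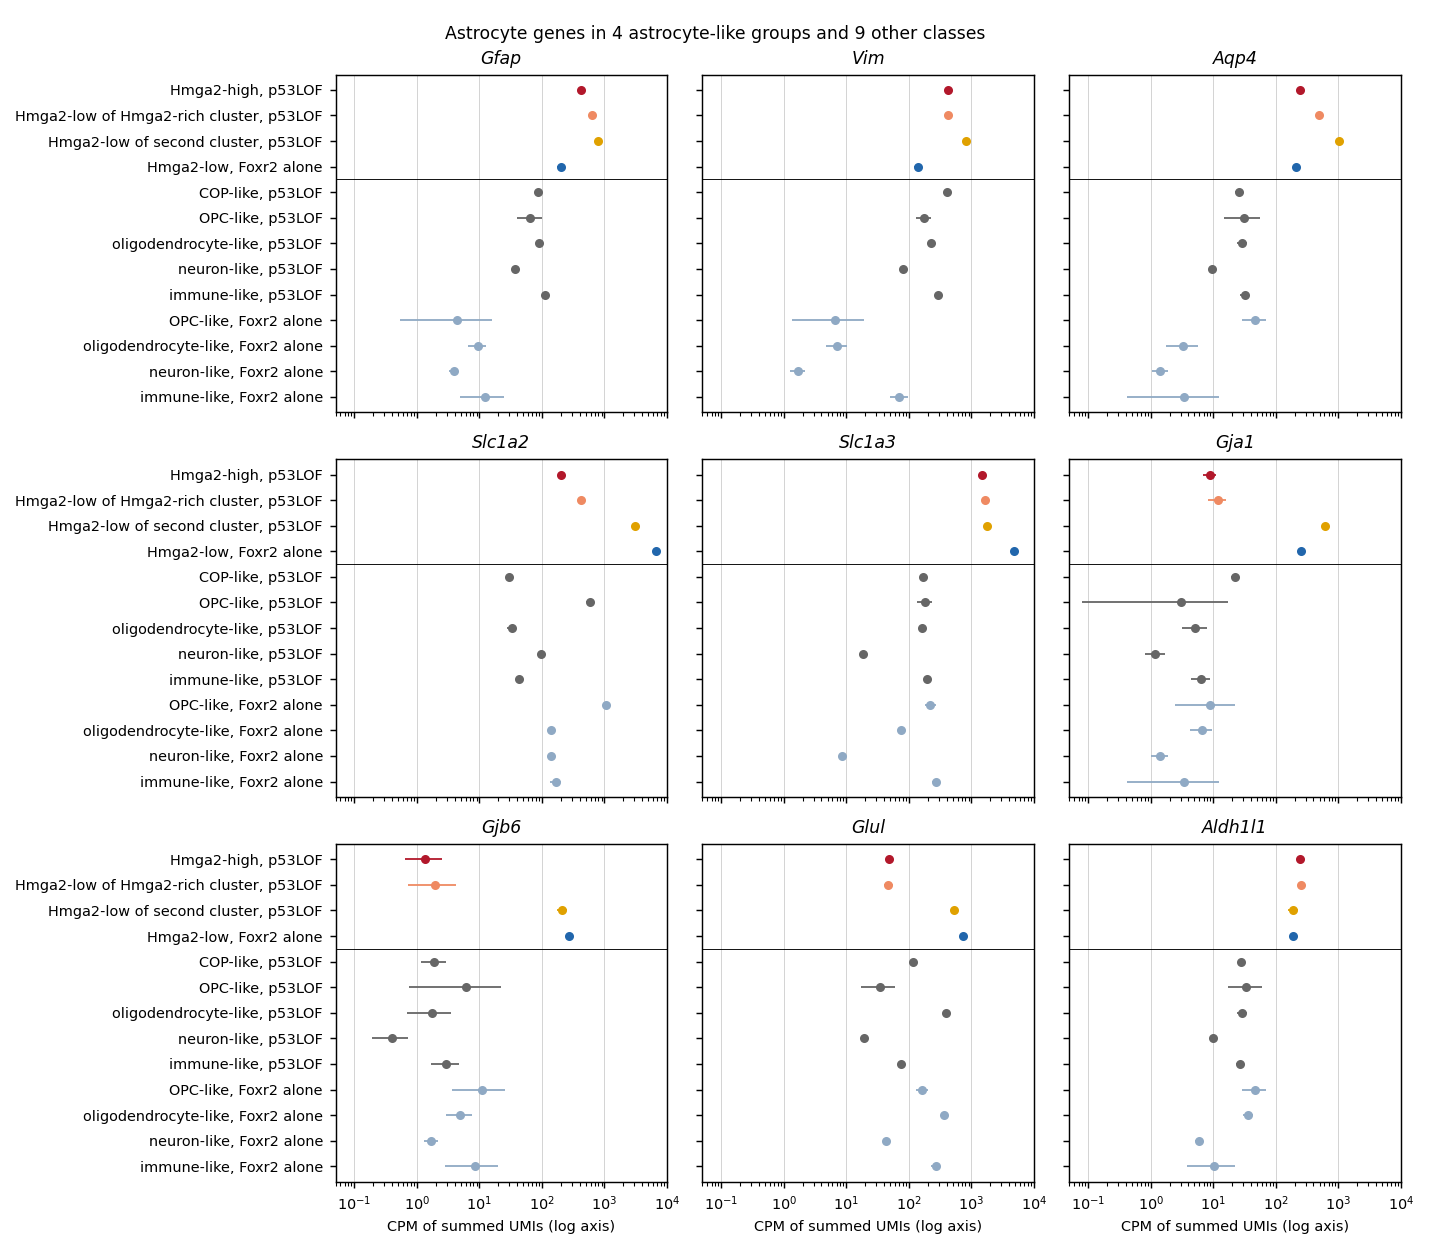
Each panel plots the CPM of 1 gene on a log axis in the 4 sets of astrocyte-like nuclei (above the line) and 9 other classes (below it), with exact 95% Poisson intervals for counting error and 1 library per genotype. In Hmga2-high nuclei and in Hmga2-low nuclei of the Hmga2-rich cluster, Gja1 and Gjb6 sit within the range of the other classes. In the second cluster and in Foxr2 alone they sit far to the right.

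The filament genes were higher in every set of astrocyte-like nuclei of Foxr2 p53LOF than in those of Foxr2 alone. Gfap, the main filament of mature astrocytes, stood at 422 CPM (407 to 437) in Hmga2-high nuclei, 640 CPM (612 to 669) in Hmga2-low nuclei of the same cluster, 783 CPM (713 to 857) in the second cluster and 201 CPM (177 to 228) in Foxr2 alone. Vim, the filament that immature and reactive astrocytes add to GFAP, stood at 424, 418, 820 and 141 CPM in the same order. Neuron-like nuclei were lowest among the named classes of at least 50 nuclei, with 37.5 CPM of Gfap and 80.7 CPM of Vim in the p53LOF library. In the other library they held 3.87 and 1.66 CPM. Gfap and Vim were also higher in the other named classes of Foxr2 p53LOF than in the same classes of Foxr2 alone. In oligodendrocyte-like nuclei Gfap stood at 90.3 and 9.40 CPM and Vim at 223 and 7.11 CPM. In immune-like nuclei Gfap stood at 111 and 12.1 CPM and Vim at 296 and 70.6 CPM. The difference between the libraries was thus not particular to astrocyte-like nuclei. A neuron should hold neither, so the 32.9% of neuron-like nuclei of Foxr2 p53LOF with a Gfap UMI, at a median depth of 9999.5 UMIs, serve as a background. In Hmga2-high nuclei 74.6% had a Gfap UMI, and in the second cluster 69.7%. With every nucleus thinned to 1000 UMIs these shares were 3.45% in neuron-like, 29.2% in Hmga2-high and 38.1% in second-cluster nuclei. The thinned share was higher than in neuron-like nuclei in other classes of the library, at 10.3% in immune-like and 8.99% in oligodendrocyte-like nuclei. Vim stood at 412 CPM in the nuclei of Foxr2 p53LOF that resembled committed oligodendrocyte precursors (COP-like), within the interval of the Hmga2-high nuclei (410 to 440), so its level did not set the Hmga2-high nuclei apart from these. An unnamed cluster of 318 nuclei of Foxr2 p53LOF, with Pomc, Gbp2, Vim and Hmga2 among its leading genes, held 854 CPM of Vim and 372 CPM of Gfap (330 to 419).

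In Foxr2 alone the filament genes came from few nuclei. Gfap UMIs were found in 61 of 401 nuclei (15.2%), and the 41 nuclei with most Gfap held 92.1% of its UMIs, compared with 44.7% in the top 75 of 743 Hmga2-high nuclei and 51.6% in the top 12 of 119 second-cluster nuclei. For Vim, 60 nuclei had a UMI and the top 41 held 89.3%. Vim stood at 408 CPM in the 61 nuclei with Gfap and at 49.1 CPM in the 340 without, and Glul at 1146 and 591 CPM, whereas Slc1a2 was near level at 6391 and 6636 CPM. The nuclei with Gfap were deeper, at a median of 3891 UMIs against 2448.5, and the part of depth in this was not tested.

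Aqp4, the water channel of astrocyte endfeet, was highest in the second cluster. It stood at 243 CPM (232 to 255) in Hmga2-high nuclei, 490 CPM (466 to 516) in Hmga2-low nuclei of the same cluster, 1008 CPM (929 to 1091) in the second cluster and 213 CPM (188 to 240) in Foxr2 alone. Among the other named classes of at least 50 nuclei it reached at most 31.6 CPM in the p53LOF library and 46.3 CPM in the other, and in the 3 unnamed clusters of Foxr2 p53LOF at most 91.8 CPM. An unnamed cluster of 29 nuclei of Foxr2 alone, with both astrocyte and neuron markers, held 180 CPM (132 to 238). That interval overlapped the interval of the astrocyte-like nuclei of Foxr2 alone. The intervals of Hmga2-high nuclei and of Foxr2 alone overlapped, and those of the other sets did not.

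The 2 glutamate transporters behaved differently from each other. Slc1a2, the main transporter of the adult forebrain, stood at 203 CPM in Hmga2-high nuclei, 420 CPM in Hmga2-low nuclei of the same cluster, 3096 CPM in the second cluster and 6574 CPM in Foxr2 alone. Its levels in the Hmga2-rich cluster lay below the 589 CPM of the OPC-like nuclei of the same library. Slc1a3, which radial glia and immature astrocytes also express, stood at 1486, 1639, 1774 and 4799 CPM in the same order. The highest other named class of at least 50 nuclei in Foxr2 p53LOF, the immune-like nuclei, held 192 CPM. Unnamed clusters reached higher. A cluster with 51 nuclei in that library held 1829 CPM (1613 to 2066), above the Hmga2-high nuclei, and another with 249 nuclei, led by Gm4951, Iigp1 and Gbp4, held 658 CPM. In Foxr2 p53LOF the level of Slc1a3 was therefore not particular to the astrocyte-like sets. In Foxr2 alone the highest other named class, the immune-like nuclei, held 274 CPM. An unnamed cluster of 29 nuclei there held 1662 CPM, below the astrocyte-like nuclei of that library.

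The connexins were nearly missing from the Hmga2-rich cluster. Gja1, connexin 43, stood at 8.79 CPM (6.79 to 11.2) in Hmga2-high nuclei and 11.7 CPM (8.19 to 16.2) in Hmga2-low nuclei of the same cluster, against 607 CPM (546 to 673) in the second cluster and 251 CPM (224 to 280) in Foxr2 alone. Gjb6, connexin 30, stood at 1.35 CPM (0.649 to 2.49) and 1.95 CPM (0.716 to 4.24) in the first pair and at 210 CPM (174 to 250) and 274 CPM (246 to 305) in the second. A Gja1 UMI was seen in 33 of 743 Hmga2-high nuclei (4.44%) and 101 of 119 second-cluster nuclei (84.9%), although the second cluster was shallower, at a median of 4043 UMIs. The Hmga2-high set also holds a few nuclei of other clusters. Within the Hmga2-rich cluster alone, Gja1 stood at 6.15, 5.12 and 6.19 CPM in nuclei with 2 to 3, 4 to 9 and 10 or more Hmga2 UMIs. Neuron-like nuclei of the same library, which should lack both, held 1.19 CPM of Gja1 (interval up to 1.69) and 0.395 CPM of Gjb6 (0.189 to 0.727), with a Gja1 UMI in 1.28% of nuclei. Gja1 in Hmga2-high nuclei lay above that level, but its interval overlapped those of immune-like (6.36 CPM, 4.48 to 8.77) and oligodendrocyte-like nuclei (5.15 CPM, 3.19 to 7.88), and the Gjb6 interval overlapped that of neuron-like nuclei. Whether Gja1 exceeded background in Hmga2-high nuclei therefore depended on the class chosen. The Gjb6 interval overlapped that of every other named class of the library. COP-like nuclei, which also carried vector counts (28.9% of nuclei), held 21.9 CPM of Gja1. The 25 endothelial-like nuclei held 85.4 CPM of Gja1 from 11 UMIs.

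The metabolic genes split. Glul, which turns glutamate into glutamine, stood at 48.3 CPM (43.4 to 53.6) in Hmga2-high nuclei, 46.8 CPM (39.5 to 55.1) in Hmga2-low nuclei of the same cluster, 523 CPM (467 to 584) in the second cluster and 732 CPM (686 to 781) in Foxr2 alone. Oligodendrocyte-like nuclei, which also use this enzyme, held 391 CPM in Foxr2 p53LOF. Aldh1l1 stood at 242 CPM (231 to 253), 255 CPM (238 to 274), 189 CPM (156 to 228) and 191 CPM (167 to 217) in the same order, the narrowest range of the 9 genes. In the other named classes of at least 50 nuclei it reached at most 33.9 CPM in the p53LOF library and 46.3 CPM in the other, and in unnamed clusters at most 91.7 CPM.

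A gene was called past 2-fold where the CPM ratio was at least 2 in either direction, its interval left out 1, and at least 1 group had 10 CPM. In Hmga2-high over all Hmga2-low nuclei of Foxr2 p53LOF, 0 of 9 genes were higher and 5 were lower, while 1.65% of 10322 genes tested were higher and 4.98% lower. The 5 were Aqp4 (log2 ratio of -1.24), Slc1a2 (-2.11), Gja1 (-3.66), Gjb6 (-4.76) and Glul (-1.41). Gfap (-0.65), Vim (-0.19), Slc1a3 (-0.17) and Aldh1l1 (-0.01, interval -0.13 to 0.10) were not called. With tumor nuclei set instead by a vector count or 2 GFP UMIs, Slc1a2 (-0.77) and Glul (-0.45) were no longer called, Aqp4 changed sign (0.72) and Gfap was called higher (1.04). Gja1 and Gjb6 were still called lower, but at -1.25 and -1.96. At the coarser clustering resolution of 0.5, which named no second astrocyte-like cluster, Gja1 gave -1.41 and Slc1a2 -1.22. Neither Gjb6 (-1.77) nor Glul (-0.19) was called there. In the main clustering Gjb6 stood at 1.35 CPM in Hmga2-high nuclei and 1.95 CPM in Hmga2-low nuclei of the Hmga2-rich cluster. Both lie under the 10 CPM that a call needs, so the missing call of Gjb6 says little about its ratio.

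Against the second cluster alone the same 5 genes were lower, with log2 ratios of -2.05 for Aqp4, -3.93 for Slc1a2, -6.11 for Gja1, -7.28 for Gjb6 and -3.44 for Glul. The background was wider too, with 16.4% of all genes tested higher and 20.5% lower, and the median gene with 10 CPM in both groups stood at 0.12. Against the Hmga2-low nuclei of the Hmga2-rich cluster, 2 of the 8 genes tested were lower, Aqp4 (-1.01) and Slc1a2 (-1.05), and 0 were higher, where 1.33% of genes were higher and 2.55% lower. Gjb6 had under 10 CPM in both and was not tested. Gja1 there gave -0.41 (interval -1.02 to 0.22) and Glul 0.05 (-0.24 to 0.33). Aqp4 and Slc1a2 were thus lower in this comparison too, and Gja1 and Glul were not called. The Hmga2-high set includes a few nuclei of other clusters, so the -0.41 for Gja1 does not describe the Hmga2-rich cluster alone. Within that cluster Gja1 stood at 9.12 and 15.1 CPM in nuclei with 0 and 1 Hmga2 UMIs. It stood at 6.15, 5.12 and 6.19 CPM with 2 to 3, 4 to 9 and 10 or more. At the coarser resolution, which named no second astrocyte-like cluster, Gja1 was still called lower and Glul was not. The call of Glul thus rested on the second cluster. In the main clustering, 4 Hmga2-low nuclei of Foxr2 p53LOF lay in the astrocyte-like cluster of Foxr2 alone. At the coarser resolution that cluster still held 4 nuclei of Foxr2 p53LOF, so the Hmga2-rich cluster did not stand alone there either. The part of these few nuclei in the call of Gja1 was not tested.

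**Figure D2:**
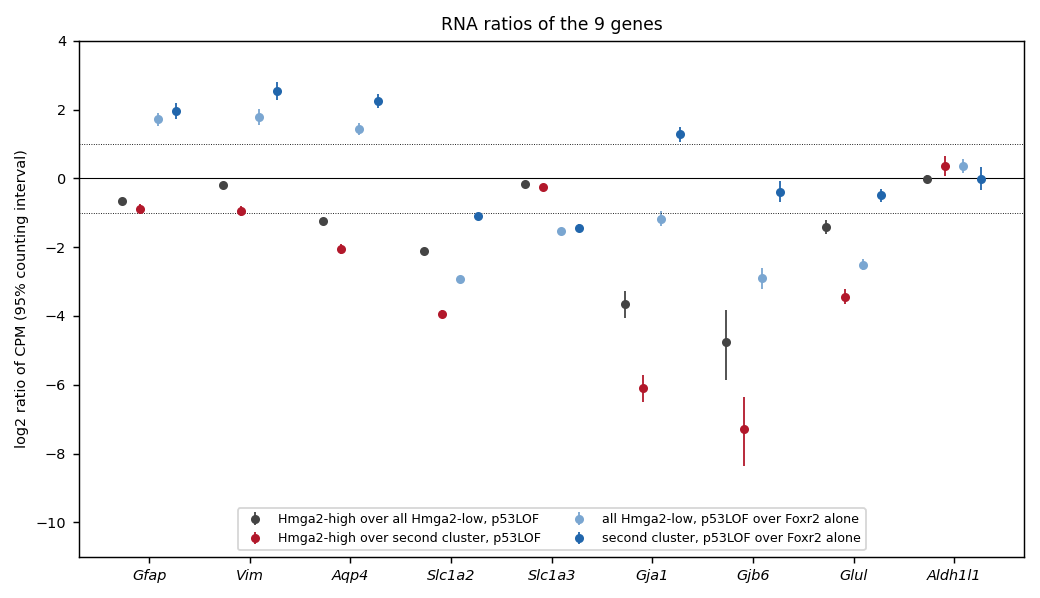
The vertical axis is the log2 ratio of CPM with its exact 95% counting interval, and each gene has 4 points, 1 for each of 4 comparisons. Dotted lines mark 2-fold. Gja1 and Gjb6 fall lowest in Hmga2-high nuclei over the second cluster, at -6.11 and -7.28, and Aldh1l1 stays within 2-fold in all 4.

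Within the Hmga2-rich cluster, Slc1a2, Aqp4 and Gfap were lower in nuclei with more Hmga2. From the 231 nuclei without an Hmga2 UMI to the 342 with 10 or more, Slc1a2 went from 425 to 133 CPM (log2 ratio of -1.67, interval -1.84 to -1.51) and Aqp4 from 515 to 173 CPM (-1.57, interval -1.72 to -1.43). Gfap went from 667 to 347 CPM (-0.94, interval -1.06 to -0.83). Vim (0.09), Slc1a3 (-0.32), Glul (-0.25) and Aldh1l1 (-0.32) moved less. The median depth rose over the same bins from 6804 to 9862.5 UMIs, and the share of nuclei with a chromatin count on the vector went from 29.4% to 31.0%. Nuclei with more UMIs more easily pass an Hmga2 threshold, and the part of depth in these trends was not tested. At the threshold itself, Slc1a2 stood at 633 CPM in the 180 astrocyte-like nuclei of Foxr2 p53LOF with 1 Hmga2 UMI and at 408 CPM in the 102 with 2, and Gfap at 616 and 682 CPM. Of those 180 nuclei, 164 lay in the Hmga2-rich cluster and held 413 CPM of Slc1a2, so the step in Slc1a2 came mainly from nuclei outside that cluster.

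**Figure D3:**
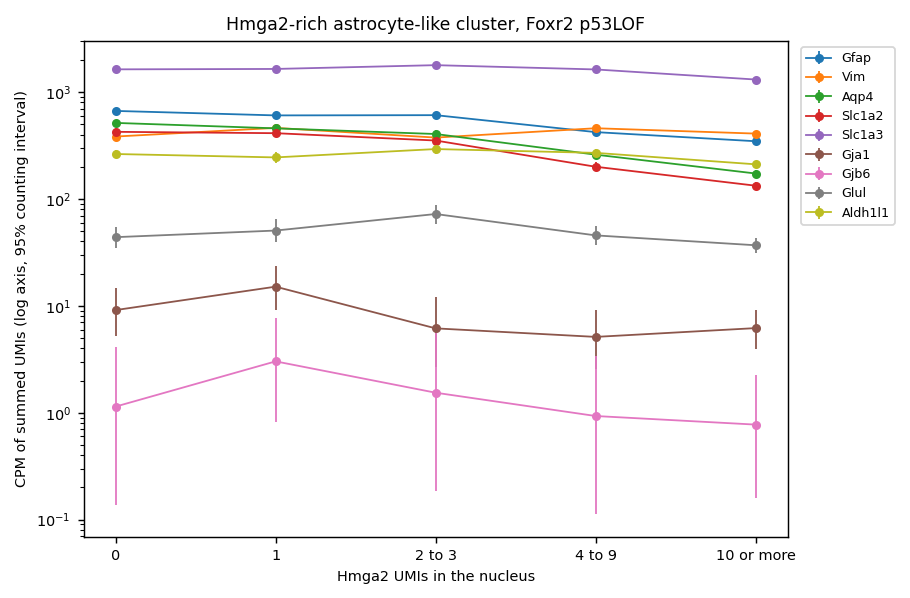
The CPM of each gene (log axis, exact 95% counting intervals) is plotted against the number of Hmga2 UMIs in the nucleus, for the Hmga2-rich cluster of Foxr2 p53LOF. Slc1a2, Aqp4 and Gfap descend to the right, to 133, 173 and 347 CPM, and Vim and Aldh1l1 run nearly flat.

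Between the libraries, the Hmga2-low nuclei of Foxr2 p53LOF held more Gfap, Vim and Aqp4 than the astrocyte-like nuclei of Foxr2 alone, and less of the transporters, the connexins and Glul. In all, 3 of 9 genes were higher, Gfap (log2 ratio of 1.72), Vim (1.78) and Aqp4 (1.43), and 5 were lower, Slc1a2 (-2.91), Slc1a3 (-1.52), Gja1 (-1.17), Gjb6 (-2.90) and Glul (-2.51). Aldh1l1 gave 0.35. Gja1 was no longer called with the mean CPM over single nuclei (-0.63) or with host nuclei at 0 Hmga2 UMIs (-0.73). At resolution 0.5 Gja1 gave -4.01, Gjb6 -6.40, Glul -3.81 and Slc1a2 -3.89. With only nuclei of at least 3000 UMIs the ratio of Gfap fell to the 2-fold limit and that of Vim to 1.12, both still called, and that of Aqp4 was 1.32. Of 11474 genes tested, 23.4% were higher and 24.4% lower, so many genes differed between these libraries and the calls of the 9 must be read against that. Gfap and Vim were also higher in Foxr2 p53LOF in every other named class that both libraries held.

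With the second cluster in place of all Hmga2-low nuclei, the filament genes and Aqp4 were again higher in Foxr2 p53LOF, by log2 ratios of 1.96 for Gfap, 2.54 for Vim and 2.24 for Aqp4. Gja1 was now higher as well (1.28), and Slc1a2 (-1.09) and Slc1a3 (-1.44) were lower. Gjb6 (-0.39), Glul (-0.49) and Aldh1l1 (-0.01) were not called. That made 4 of 9 higher and 2 lower, where 14.7% of genes tested were higher and 15.9% lower. The sign for Gja1 thus depended on which nuclei stood for the host. Immune markers summed to 882 CPM in the second cluster and to 199 CPM in Foxr2 alone, and their part in these ratios was not tested. Subtracting the CPM of the neuron-like nuclei of the same library changed no call of the 9 genes in either comparison that used all Hmga2-low nuclei. Those nuclei had the lowest level of the other named classes for every gene but Slc1a2. The part subtracted differed by gene. In Foxr2 p53LOF, 95.4 CPM of Slc1a2 was subtracted from 203 CPM in Hmga2-high nuclei, and 19.5 CPM of Glul from 48.3 CPM. For Slc1a3 it was 18.7 CPM from 1486 CPM, so the setting could hardly change the call of such a gene.

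A list of 36 other genes of astrocyte function and a list of 41 genes of astrocyte reactivity, neither holding any of the 9, were counted in the same way. In Hmga2-high over all Hmga2-low nuclei, the function list had 1 gene higher and 11 lower of 33 tested, with a median log2 ratio of -0.53. Over all genes the median was -0.05, with 1.65% higher and 4.98% lower. Nearly all of these calls ended with tumor nuclei set by a vector count or 2 GFP UMIs (0 higher and 1 lower of 33) and at resolution 0.5 (1 higher and 2 lower of 31). The gene that was higher was Grm5, a glutamate receptor (1.27). The lowest were Sparcl1 (-2.06), a secreted synapse-organising protein, Pla2g7 (-2.06), a phospholipase, and Clu (-1.90), the chaperone clusterin. The reactivity list had 4 higher and 4 lower of 29 (median 0.39), with 7 higher and 0 lower of 28 by the vector or GFP, and 4 higher and 0 lower of 26 at resolution 0.5. Tnc, the matrix protein tenascin C, led the higher genes (2.04), followed by the cytokine gene Clcf1 (1.37) and Tm4sf1 (1.07). Serpina3n (-2.44), Fbln5 (-2.34) and Aspg (-1.92) led the lower ones.

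In Hmga2-low nuclei of Foxr2 p53LOF over Foxr2 alone, the function list had 5 higher and 18 lower of 34 (median -1.03) and the reactivity list 22 higher and 4 lower of 31 (median 2.69), with a median of 0.08 over all genes tested. Over all genes 23.4% were higher and 24.4% lower, so the higher side of the function list (5 of 34) and the lower side of the reactivity list (4 of 31) lay below the background. The function genes furthest up were Grm5 (3.95), Fabp7 (3.85), a fatty acid binding protein of radial glia, and the potassium channel gene Kcnj10 (1.43). Those furthest down were Gjb2 (-3.87), another connexin, Gpc6 (-3.49), a glypican, and Apoe (-3.20), the lipid carrier. The reactivity genes furthest up were Iigp1 (9.06, interval 7.20 to 12.1, from 2 UMIs in Foxr2 alone), Gbp2 (6.85) and Tnc (6.28), the first pair being interferon-induced GTPases. Synm (-3.33), Slc10a6 (-3.14) and Fbln5 (-2.01) were lower. Iigp1 and Gbp2 were also among the 10 leading genes of the oligodendrocyte-like and COP-like clusters of Foxr2 p53LOF. Tnc was among those of the COP-like cluster and of the unnamed cluster of 318 nuclei.

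With the second cluster in place of all Hmga2-low nuclei, the function list had 2 higher and 23 lower of 35 in Hmga2-high nuclei (median -1.75). There 16.4% of all genes were higher and 20.5% lower. Between the libraries it had 8 higher and 5 lower of 35 (median -0.01), where 14.7% were higher and 15.9% lower, so its lower side was near the background. The reactivity list had 12 higher and 6 lower of 31 in Hmga2-high nuclei (median 0.60) and 22 higher and 0 lower of 30 between the libraries (median 2.46). The count of higher reactivity genes between the libraries was the same with and without the Hmga2-low nuclei of the Hmga2-rich cluster, and that of lower function genes was not (18 with them).

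**Figure D4:**
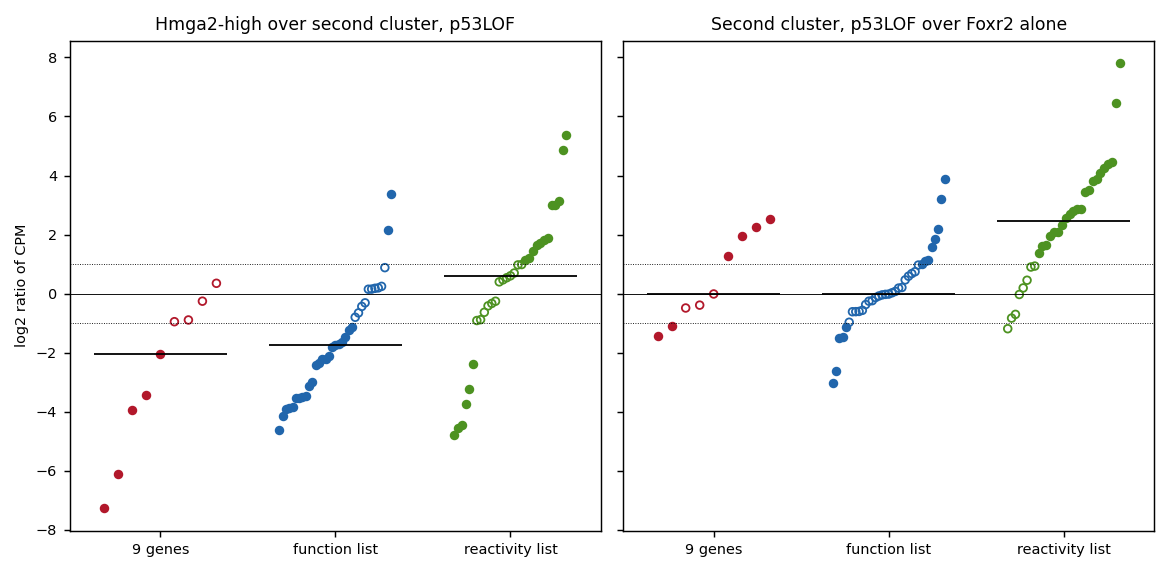
Each point is the log2 ratio of CPM of 1 gene, filled where it was called past 2-fold and open where it was not, for the 9 genes and both lists. Black bars are medians and dotted lines mark 2-fold. In Hmga2-high nuclei over the second cluster the function list centres at -1.75, and in the second cluster over Foxr2 alone the reactivity list centres at 2.46.

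Chromatin was summed over peaks within 1 kb of an annotated start of each gene and scaled to CPM of all counts in peaks. Gfap peaks held 95.9 CPM (86.8 to 105) in Hmga2-high nuclei, 97.0 (71.3 to 132) in the second cluster and 33.5 (25.1 to 44.6) in Foxr2 alone. Peaks were called in each library on its own, and a peak over the start, which contains the window printed above, was called in Foxr2 p53LOF and not in Foxr2 alone. In the upstream peak that both libraries share, centred 1425 bases from the start, the values were 48.3, 55.8 and 33.5 CPM. The Vim promoter held 67.6, 77.0 and 14.2 CPM in the same order.

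Among the 4 astrocyte-like sets, the connexin promoters were lowest in the Hmga2-rich cluster, as the RNA was. The Gjb6 peak held 3.08 CPM (1.74 to 5.36) in Hmga2-high nuclei, 0.517 (0.0131 to 2.88) in Hmga2-low nuclei of the same cluster, 31.2 (17.1 to 52.4) in the second cluster and 34.2 (25.1 to 44.6) in Foxr2 alone. The Gja1 peak, which covers the start printed above, held 8.44, 11.1, 36.8 and 32.8 CPM in the same order. In the neuron-like class of the p53LOF library it held 3.48 CPM, and in the COP-like class 9.44 CPM (7.25 to 12.1). The Slc1a2 peak held 28.5, 34.4, 49.1 and 80.2 CPM, a smaller spread than that of its RNA. It held 38.3 CPM in neuron-like and 43.6 CPM in OPC-like nuclei of Foxr2 p53LOF, so it was not particular to astrocyte-like nuclei. The Glul peak also covers the start of Teddm2 on the other strand, so its 46.7, 51.2, 77.0 and 91.0 CPM cannot be assigned to Glul alone. The Aldh1l1 peak held 36.2, 32.8, 52.4 and 46.0 CPM. Between Hmga2-high nuclei and the second cluster the intervals of 7 genes overlapped, and those of Gja1 and Gjb6 did not.

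**Figure D5:**
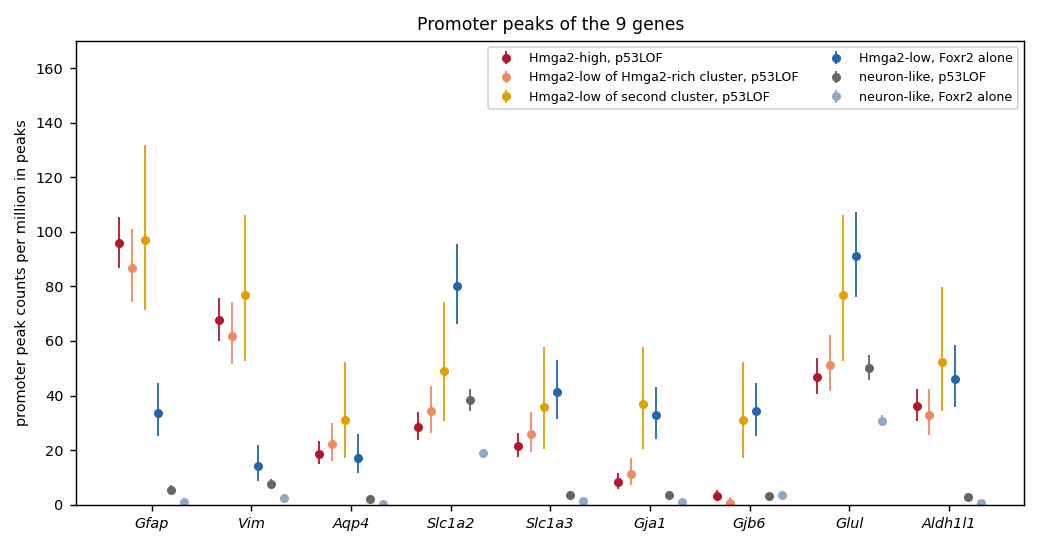
Promoter peak CPM, scaled to all counts in peaks, is plotted from 0 for each gene, with exact 95% intervals for counting error, in the 4 sets of astrocyte-like nuclei and in the neuron-like nuclei of each library. For Gjb6, Hmga2-high nuclei and Hmga2-low nuclei of the Hmga2-rich cluster lie low, at 3.08 and 0.517. Neuron-like nuclei of Foxr2 p53LOF lie at 3.17, and the second cluster and Foxr2 alone at 31.2 and 34.2.

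By the same 2-fold rule, 0 of 9 promoters were called in Hmga2-high over all Hmga2-low nuclei, where 0.506% of 15024 promoters were higher and 0.958% lower. The largest ratios were those of Gjb6 (-1.03, interval -2.13 to 0.18) and Gja1 (-0.95, interval -1.64 to -0.26). Against the second cluster, Gjb6 (-3.34) and Gja1 (-2.13) were lower and 0 were higher, where 4.04% of promoters were higher and 4.4% lower. Between the libraries with all Hmga2-low nuclei, Gfap (1.40) and Vim (2.18) were higher and Slc1a2 (-1.09), Gjb6 (-2.45) and Gja1 (-1.01) lower, where 10.4% were higher and 3.32% lower. With the second cluster only Gfap (1.53) and Vim (2.44) were called, both higher, where 4.2% were higher and 2.36% lower. The Vim promoter was also higher in Foxr2 p53LOF in other classes. It held 54.2 against 13.5 CPM in immune-like, 7.58 against 2.36 in neuron-like and 5.66 against 2.83 in oligodendrocyte-like nuclei. In OPC-like nuclei it held 10.1 and 7.61 CPM, with overlapping intervals. The difference in Vim between the libraries was thus not particular to astrocyte-like nuclei. Both Gfap ratios set 2 peaks against 1 separately called peak. In the shared peak alone the ratio with all Hmga2-low nuclei fell to 0.40 and was no longer called. There the second cluster held 55.8 CPM (36.1 to 82.3) against 33.5 CPM (25.1 to 44.6) in Foxr2 alone, with overlapping intervals. The same Gfap peak held 2.91 and 0.943 CPM in neuron-like nuclei of the p53LOF and the other library. It held 3.45 and 0.720 CPM in oligodendrocyte-like and 28.5 and 31.8 CPM in OPC-like nuclei.

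Peaks in the gene bodies and up to 10 kb upstream gave more features. In Hmga2-high nuclei over the second cluster, 5 of 12 Slc1a2 peaks and 2 of 3 Gja1 peaks were lower and 0 were higher, and of 18 Aldh1l1 peaks 5 were lower and 1 was higher. One of 2 peaks was lower for Gjb6 and for Glul, 1 of 13 Slc1a3 peaks was higher, and none of the Gfap, Vim or Aqp4 peaks was called. Over all peaks 4.86% were higher and 5.26% lower. Against all Hmga2-low nuclei fewer were called, 2 Slc1a2 peaks and 1 Gja1 peak, all lower, where 3.6% of all peaks were higher and 2.35% lower. Against the Hmga2-low nuclei of the Hmga2-rich cluster only 1 Slc1a2 peak was lower, where 2.32% were higher and 1.85% lower. In the other Foxr2 alone library, the peak list held a promoter peak for 8 of the 9 genes, Gja1 being the exception, and for 14535 of 21617 protein-coding genes. Several genes overlap an antisense gene (Gm26668 for Gfap, AC133525.2 for Aqp4, Gm13872 for Slc1a2, Teddm2 for Glul and Gm15756 for Aldh1l1), and how reads in these overlaps were counted is not given in the sources used here.

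Over 15 sums of nuclei by class and library, the genes whose log2(CPM + 1) pattern was most like the mean pattern of the 9 were Mlc1 (Pearson r of 0.949), Ctnnd1 (0.910), Id3 (0.895), Nadk2 (0.888) and Gm973 (0.884), among 14841 genes compared. Mlc1, a membrane protein of astrocyte endfeet, was also one of the markers used to name clusters. Those most like Gfap were Cxcl10 (0.944), Tst (0.924) and Igfbp2 (0.923). The 15 sums share libraries and depth and are not independent, so these values are descriptions. Of the 9 genes, Slc1a3 (0.960) and Gja1 (0.924) lay closest to their mean pattern and Glul (0.519) furthest from it.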

How the data were processed

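Single-nucleus RNA and chromatin accessibility (10x Multiome) were measured in 3 libraries, and count tables of 2 were used (1 Foxr2 p53LOF, 1 Foxr2 alone). The authors aligned reads to mm10 with added vector sequences and counted with Cell Ranger ARC 2.0.0. The deposited values are raw counts of UMIs per gene and of transposition events per peak, with peaks called in each library. Totals over all barcodes were 96929539 and 59719847 UMIs.

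Nuclei were kept with at least 400 genes, 400 fragments in peaks, at most 5% mitochondrial UMIs and the study's upper limits per library. Its filters on start site enrichment and nucleosome signal could not be computed from counts and were not applied, and its doublet caller was another. Scrublet in scanpy 1.11.5 marked 299 and 529 nuclei as doublets, which were removed. Clusters (Leiden, leidenalg 0.10.2) were named by fixed markers. The resolution of 1.0 in place of 0.5, and the thresholds for naming a cluster, were chosen after seeing the data. The members and lists were chosen with earlier results of these data known.

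UMIs were summed per group and given as CPM. Intervals are exact at 95% (Poisson, conditional binomial or Clopper-Pearson, scipy 1.17.1). Peak counts were divided by 2 for intervals, because 80.7% and 82.9% of nonzero counts were even, as 2 events per fragment give. Where 1 side held no UMI, the ratio was bounded with 3 counts. All 9 genes are named, with the 3 called genes of each list furthest in each direction, and the 5 and 3 most similar genes. With 1 library per genotype there is no replicate check and no p-value. The counting code was tested on simulated data. Alternatives covered scaling, filters, doublets, depth, Hmga2 limits, the choice of tumor and host nuclei, resolution, promoter window and peak scaling.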

Additional observations from a re-analysis of the deposited data

How the results depend on the processing

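No paired analysis was possible because each genotype had 1 library with counts, and for the same reason no library could be left out. Of the recomputed values of single genes, 295 kept their side of the 2-fold rule, 18 lost the call, 5 gained it, 3 called values changed sign, and 1, Gfap below, went from an uncalled value to a call in the other direction. With tumor nuclei set by vector counts or 2 GFP UMIs, 3 genes were called in place of 5 (Gfap higher at 1.04), Aqp4 changed sign to 0.72, as did the uncalled Vim (0.58), Slc1a3 (0.32) and Aldh1l1 (0.64), and the function list had 1 call in place of 12. The second cluster in place of all Hmga2-low nuclei was chosen after seeing the data. With it, the function list had 25 calls within Foxr2 p53LOF and 13 between libraries. The reactivity list had 18 within Foxr2 p53LOF. Promoter calls were 2 in each comparison, of which Gfap between libraries rested on a peak called in 1 library. Gja1 then changed sign between libraries, to 1.28 in RNA and 0.16 at the promoter. Other uncalled values changed sign too. At resolution 0.5, the setting first planned, no second astrocyte-like cluster was named, 400 Hmga2-low nuclei stood in place of 518, and 3 genes, 3 function genes and 4 reactivity genes were called within Foxr2 p53LOF. Between libraries, 3 promoters in place of 5 were called by the share of nuclei with a count, scaling to counts in promoter peaks alone, or with doublets kept. Within Foxr2 p53LOF, keeping doublets gave 1 promoter call, and Hmga2 limits of 4 or more and 0 gave 2, in place of 0. The causes were not tested. Depth limits Gja1 and Gjb6, which rest on 65 and 10 UMIs in all 743 Hmga2-high nuclei. Of these nuclei 737 lie in the Hmga2-rich cluster. There Gja1 had 8, 11 and 24 UMIs in nuclei with 2 to 3, 4 to 9 and 10 or more Hmga2 UMIs. Gjb6 had 2, 2 and 3 in the same bins. Part of the 65 and 10 UMIs thus came from the few nuclei of other clusters. Depth also limits the second cluster, which holds 119 nuclei.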
